A study of Mus musculus with 7 samples.

Results

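The E2F factors and the RB family were followed in mouse B cells by 10 genes, listed by symbol: E2f1, E2f2, E2f3, E2f4, E2f7, E2f8, Rb1, Rbl1, Rbl2 and Tfdp1. They were 10 of 23212 genes named in the merged set of transcripts and 10 of 11726 genes assembled in at least 1 library. Of the 10, 7 were assembled in all 7 libraries, among 9306 such genes in the series. E2f4 was assembled under its own name in all but the BAFF library at 30 h, E2f8 in all but the library with both stimuli at 8 h, and E2f7 in the 3 libraries at 30 h.

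E2F proteins bind promoters of genes for DNA replication and cell division. E2f1, E2f2 and E2f3 encode activators, E2f4 a factor that acts with pocket proteins in resting cells, and E2f7 and E2f8 atypical repressors that bind DNA without a DP partner. Tfdp1 encodes DP1, a partner of the other E2F proteins. The pocket proteins RB (Rb1), p107 (Rbl1) and p130 (Rbl2) repress the target genes of E2F proteins until cyclin-dependent kinases phosphorylate the pocket proteins. In a resting lymphocyte p130 with E2F4 forms the DREAM complex, and an antigen receptor signal that drives the cell into S phase releases this block.

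All libraries were of wild-type C57BL/6 primary B cells: anti-IgM, which crosslinks the antigen receptor, at 8 h and 30 h, BAFF, a B cell survival cytokine of the TNF family, at the same times, both together at the same times, and unstimulated cells at 0 h. Each of the 7 conditions was 1 library, so there was no replicate check and no p-value was computed. Cells kept in culture with no stimulus were not analysed here, so against the unstimulated library the effects of the stimulus and of the hours in culture cannot be told apart. The number and age of the animals and the purification of the cells are not given in the sources used here.

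Between 10289 and 10728 genes were named per library, and 18.8 to 28.6 M mapped reads were calculated back from the deposited values. Of 6 B cell markers, 5 or 6 were assembled in every library, with a summed level of 766 to 2895 FPKM (fragments per kilobase of transcript, scaled to the mapped reads of the library). Cd79a, one of the 6, was not assembled in 5 libraries. None of 4 neutrophil markers was assembled in any library, 6 T cell markers summed to at most 7.77 FPKM, and of 4 erythroid markers at most 1 was assembled in a library. Plasma cell markers, 2 or 3 of 4 assembled and Jchain in none, summed to 39.2 to 61.1 FPKM. Of 6 macrophage and monocyte markers, 2 to 5 were assembled in the 6 stimulated libraries, with a sum of 3.14 to 42.8 FPKM, against 4 in the unstimulated library, with a sum of 118 FPKM. Adgre1 was not assembled in any library. The part of these cells in the differences from the unstimulated library was not tested. In bulk libraries fewer cells of a type and less RNA per cell cannot be told apart.

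The levels of the 10 genes are given on 2 scales, and those of other genes in FPKM unless exon RPKM is named. FPKM is the sum over the assembled transcripts of a gene, with an interval of 2 SD of counting error either way. Where a gene was assembled in separate pieces, their FPKM adds up and overstates the gene. Exon RPKM is the number of reads over the annotated exons per kilobase of exon, scaled as FPKM is; these reads were calculated back from the same FPKM, so the 2 scales are not independent. A difference was counted when 3 conditions were met: a log2 difference of 1 or more (a pseudocount of 1 being added to FPKM), intervals that did not overlap, and a level of 1 FPKM in at least 1 of the libraries. It is called held when exon RPKM plus 1 also differed by at least 1 on the log2 scale in the same direction.

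The regions before the starts of E2f3, E2f7, Rbl1 and Tfdp1 are shown as a selection. Assembled transcripts used both E2f3 starts. The other 3 genes had higher levels at 30 h than at 8 h with every stimulus or were assembled at 30 h only. Levels were also higher at 30 h than at 8 h for E2f2 with every stimulus, and for E2f1 by exon RPKM. E2f8 was higher at 30 h with anti-IgM and with BAFF, and Rbl2 with anti-IgM and with both. With BAFF the Rbl2 intervals at 8 h and 30 h overlapped. Regions of these genes are not shown, and the windows of E2f1, E2f8 and Rbl2 held no E2F motif match. The E2f1 window did not reach the bases before the annotated start of the merged set, so those were not searched. A link between motifs and levels was not tested. Each sequence is the 250 bases before a start, 5′ to 3′, from RefSeq (GRCm38.p6), with E2F motif matches in capitals. E2f3a starts at the first annotated exon, and E2f3b inside the first intron.
E2f3a, chr13:29986064-29986313, minus strand: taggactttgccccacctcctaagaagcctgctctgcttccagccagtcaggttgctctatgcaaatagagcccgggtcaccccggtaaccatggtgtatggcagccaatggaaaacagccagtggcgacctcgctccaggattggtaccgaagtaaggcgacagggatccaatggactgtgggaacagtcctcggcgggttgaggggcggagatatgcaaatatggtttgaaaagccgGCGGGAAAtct
E2f3b, chr13:29984392-29984641, minus strand: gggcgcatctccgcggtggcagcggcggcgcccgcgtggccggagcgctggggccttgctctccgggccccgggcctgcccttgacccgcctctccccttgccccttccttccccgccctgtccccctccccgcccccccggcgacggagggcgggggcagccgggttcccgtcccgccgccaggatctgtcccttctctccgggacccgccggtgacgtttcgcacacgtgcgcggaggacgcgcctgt
E2f7, chr10:110745189-110745438, plus strand: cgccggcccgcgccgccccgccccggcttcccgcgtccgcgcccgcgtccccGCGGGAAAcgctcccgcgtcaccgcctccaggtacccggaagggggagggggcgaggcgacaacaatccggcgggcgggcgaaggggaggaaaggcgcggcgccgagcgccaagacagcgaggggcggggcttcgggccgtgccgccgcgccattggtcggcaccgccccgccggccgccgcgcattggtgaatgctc
Rbl1, chr2:157204535-157204784, minus strand: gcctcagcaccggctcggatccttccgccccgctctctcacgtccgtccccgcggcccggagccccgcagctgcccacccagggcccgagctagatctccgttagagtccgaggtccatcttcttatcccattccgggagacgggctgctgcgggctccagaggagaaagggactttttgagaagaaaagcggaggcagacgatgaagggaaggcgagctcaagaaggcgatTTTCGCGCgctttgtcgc
Tfdp1, chr8:13338501-13338750, plus strand: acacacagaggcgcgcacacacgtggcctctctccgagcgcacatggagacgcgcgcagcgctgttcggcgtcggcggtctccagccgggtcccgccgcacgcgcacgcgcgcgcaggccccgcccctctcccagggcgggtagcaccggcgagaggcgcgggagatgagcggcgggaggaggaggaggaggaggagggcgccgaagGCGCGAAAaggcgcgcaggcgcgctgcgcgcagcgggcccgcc

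Matches to 4 motifs of 8 letters, TTTCCCGC, TTTGGCGC, TTTCGCGC and TTTGCCGC, were searched on both strands from 250 bases before to 50 bases after each start. Matches at different positions did not overlap in these genes. RefSeq promoters were found for 8 of the 10 genes, 11 promoters in all, and 6 of the 11 held a match, in E2f2, E2f3, E2f7, Rbl1 and Tfdp1. The 2 Tfdp1 windows overlap and hold the same site, so the 6 promoters hold 5 distinct sites. Of all 32841 promoters of the same length, 744 (2.27%) held one. The match began 11 bases before the E2f3a start, 18 bases before the Rbl1 start, 43 bases before the first Tfdp1 start and 198 bases before the E2f7 start. In E2f2 it lay 39 bases after the first start. The E2f3b window, the second E2f2 window and the windows of E2f1, E2f8 and Rbl2 held no match to these letters. The E2f1 window, chr2:154569377-154569676, lies over the annotated first exon and the start of the first intron. In the merged set E2f1 begins at base 154569852, and the bases before it were not searched. E2f4 and Rb1 had no entry.

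At 30 h the libraries with anti-IgM had higher E2f1, E2f8 and Tfdp1 than the unstimulated library, and E2f7 was assembled in all 3 libraries at 30 h but not at 0 h or 8 h. At 8 h with anti-IgM, alone or with BAFF, E2f2 and Rbl2 were lower and Tfdp1 was already higher. BAFF alone at 8 h had no counted difference in these genes, and at 30 h Tfdp1 was the 1 gene counted. Rb1, by exon RPKM, stayed between 9.95 and 14.0 in all 7 libraries.

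**Figure D1:**
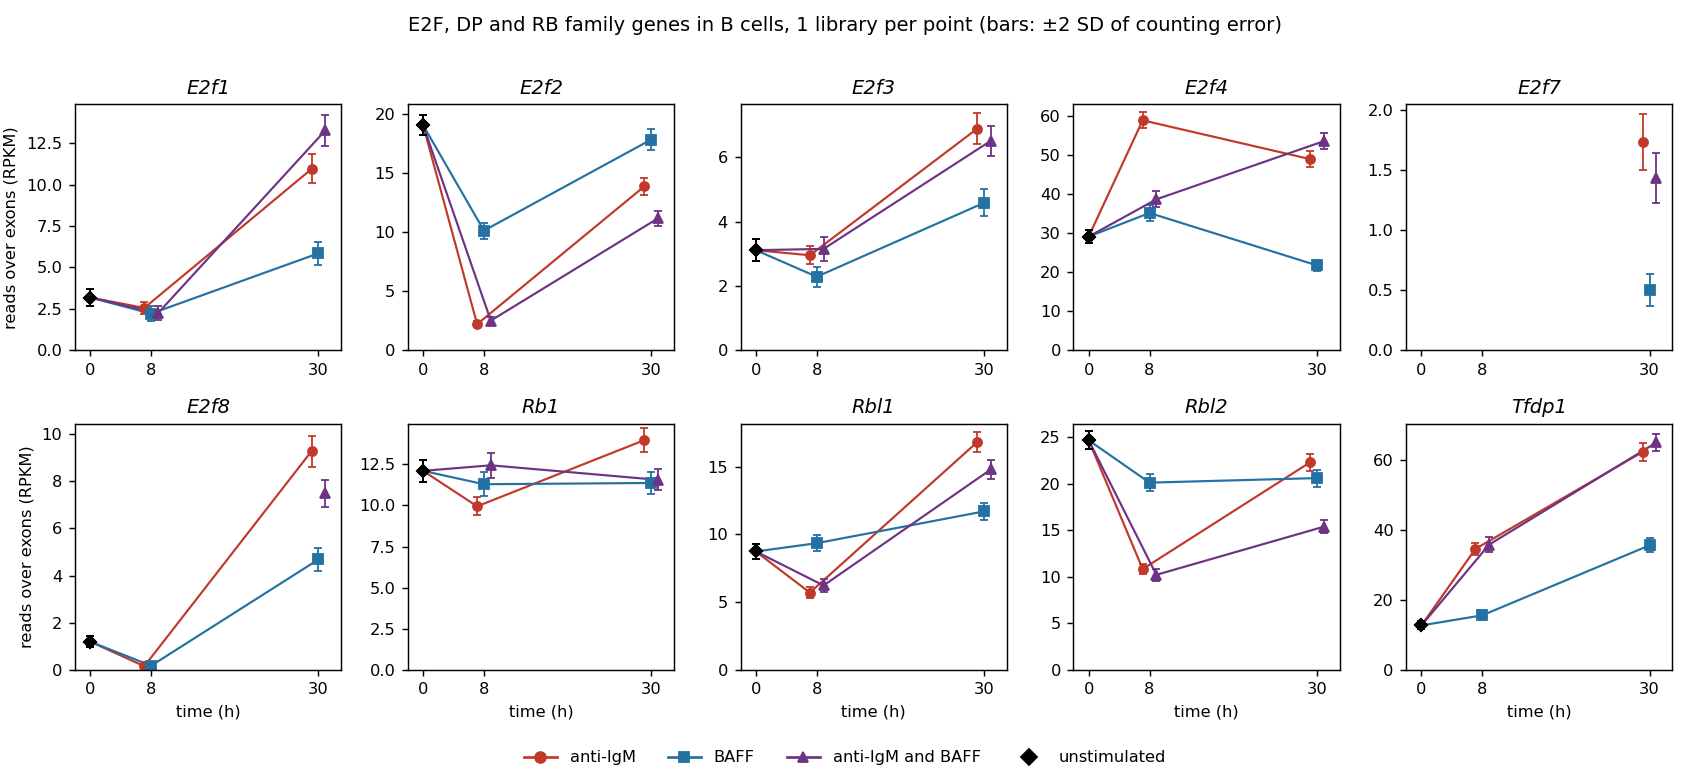
Exon RPKM (vertical axis, linear, from 0) of the 10 genes at 0, 8 and 30 h (horizontal axis), with anti-IgM as circles, BAFF as squares, both as triangles and unstimulated cells as diamonds; each point is 1 library, bars are 2 SD of counting error either way, and a gene that was not assembled has no point. E2f1, E2f8, Rbl1 and Tfdp1 are highest in the 2 libraries with anti-IgM at 30 h, while E2f2 and Rbl2 are lowest in the 2 libraries with anti-IgM at 8 h.

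With anti-IgM at 8 h, 2 genes were higher (E2f4 and Tfdp1) and 3 lower (E2f2, E2f8 and Rbl2) than in the unstimulated library, of 9 compared, where 10.7% of all genes compared were higher and 10.4% lower. Tfdp1, E2f2 and Rbl2 were held, where 15% of all genes were held in either direction. With both stimuli at 8 h, 2 of 8 genes were higher (Rb1 and Tfdp1) and 2 lower (E2f2 and Rbl2), against 12.3% and 8.84% of all genes; all but Rb1 were held, against 14.9% of all genes. With BAFF at 8 h none of 9 genes was counted, where 5.56% of all genes were higher and 4.14% lower, and 3.67% were held. The median log2 difference of the genes compared was -0.27 with anti-IgM, -0.28 with BAFF and -0.03 with both at 8 h, where all genes had medians of 0.04, 0.12 and 0.11.

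With anti-IgM at 30 h, 3 of 9 genes were higher (E2f1, E2f8 and Tfdp1, all held) and none lower than in the unstimulated library, where 8.4% of all genes were higher and 7.25% lower, and 9.69% were held. The same 3 genes were higher and held with both stimuli at 30 h, of 9 compared, where 8.29% of all genes were higher and 7.7% lower, and 10% were held. With BAFF at 30 h 1 of 8 genes was higher (Tfdp1, held), where 5.06% of all genes were higher and 4.04% lower, and 3.52% were held. Median differences were 0.47 with anti-IgM, 0.42 with BAFF and 0.43 with both, where all genes had medians of 0.06, 0.07 and 0.02. These 6 comparisons share the unstimulated library.

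**Figure D2:**
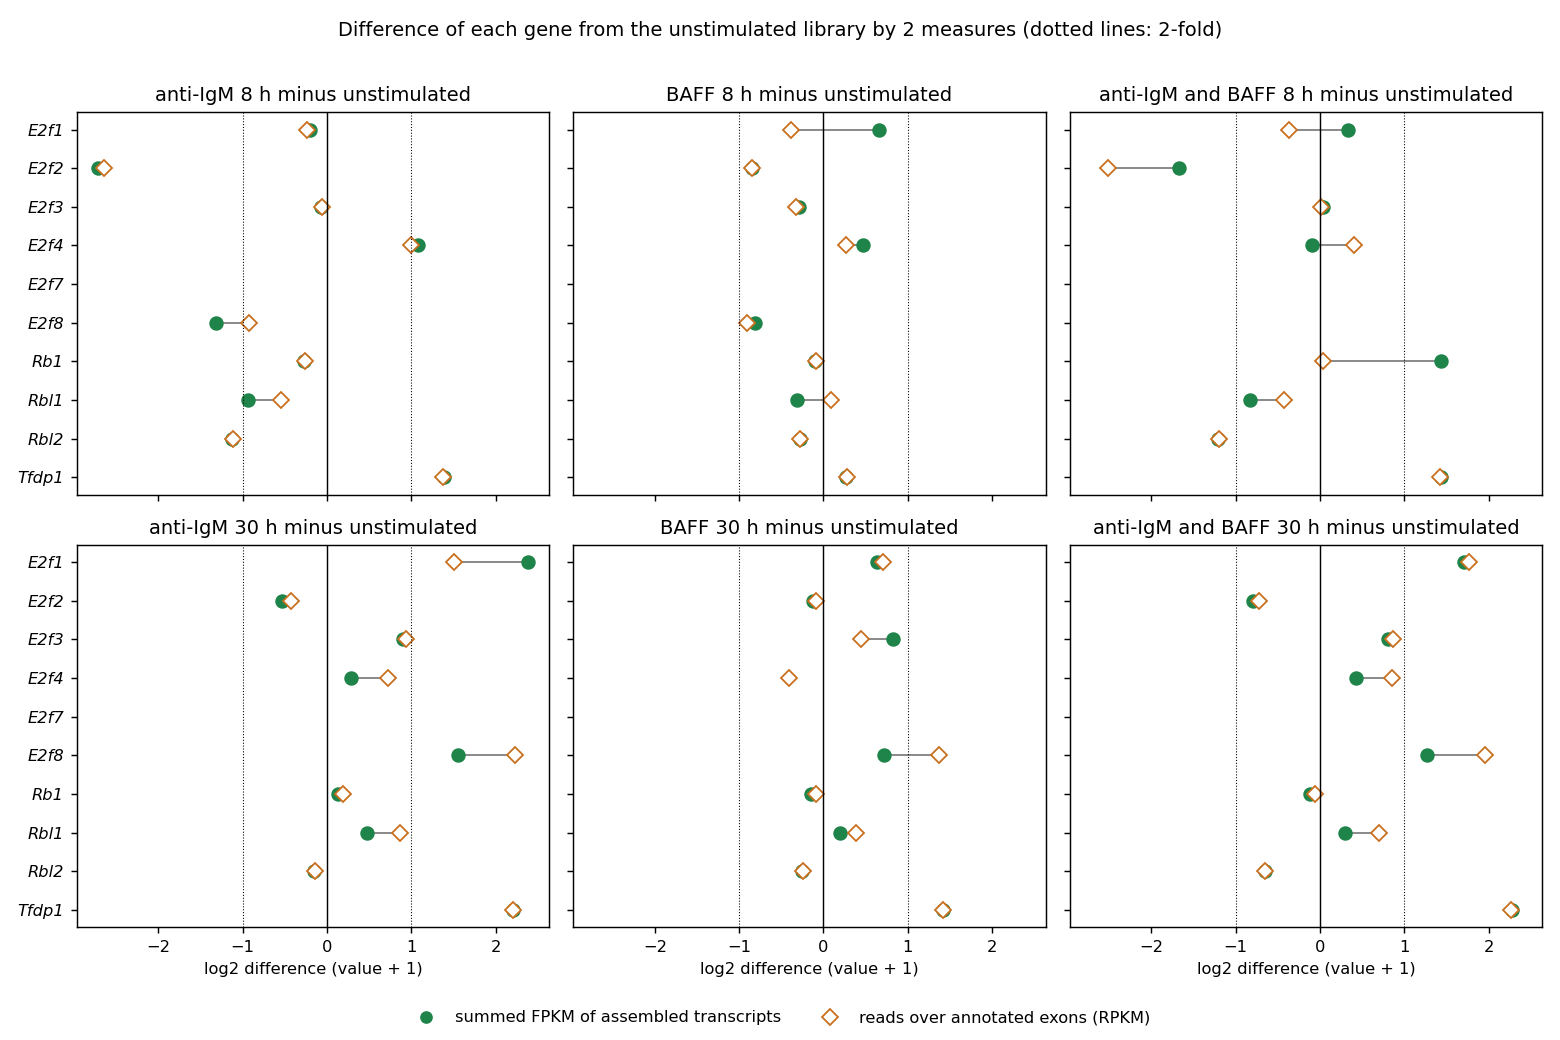
Log2 difference (horizontal axis) of each gene (vertical axis) between a stimulated library and the unstimulated one, by summed FPKM (filled circles) and by exon RPKM (open diamonds), each plus 1, with dotted lines at 2-fold. For Rb1 with both stimuli at 8 h the circle stands at 1.43 and the diamond at 0.04, and for E2f1 with anti-IgM at 30 h they stand at 2.38 and 1.51.

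E2f1, the activator best known for driving S phase entry, lies at chr2:154559639-154569852 on the minus strand with 7 exons in the merged set. Its FPKM was 4.09 in unstimulated cells at 0 h, 3.42, 7.01 and 5.39 at 8 h with anti-IgM, BAFF and both, and 25.6, 6.93 and 15.7 at 30 h with the same stimuli. On the exon RPKM scale the levels were 3.19 at 0 h, 2.56, 2.21 and 2.24 at 8 h, and 10.9, 5.86 and 13.3 at 30 h. All 3 libraries at 30 h thus stood above the other 4 by exon RPKM, and the intervals of the 4 low ones overlapped between neighbours. The rank of the 2 highest libraries depended on the scale: anti-IgM was highest by FPKM and both stimuli by exon RPKM. With anti-IgM at 30 h the log2 FPKM difference from unstimulated cells was 2.38 and the exon RPKM ratio 3.43; with both stimuli they were 1.71 and 4.16. With BAFF at 30 h exon RPKM was 5.86, against 3.19 in unstimulated cells, with intervals apart and a log2 FPKM difference below the limit.

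Part of the E2f1 FPKM came from short pieces. With anti-IgM at 30 h a piece of 567 bases and 4 exons had 14.4 FPKM, and the transcript from the annotated first exon had 8.27 FPKM. That transcript and another, of 2.91 FPKM, reached base 154555659, beyond the annotated 3′ end of the gene. With BAFF at 8 h the 7.01 FPKM was the sum of 5 pieces. All 7 libraries held transcripts with the annotated first exon (splice site at base 154569489), and others began with a first exon 3′ of it (splice site at base 154569067). The second kind was assembled in all but the library with both stimuli at 8 h. With both stimuli at 30 h, the annotated first exon had 7.94 FPKM and the one 3′ of it 7.75 FPKM, and in unstimulated cells they had 2.88 and 1.21 FPKM.

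E2f2, another activator, lies at chr4:136172394-136196056 on the plus strand with 7 exons. Its FPKM was 24.3 in unstimulated cells at 0 h, 2.86, 13.0 and 6.94 at 8 h with anti-IgM, BAFF and both, and 16.5, 22.3 and 13.6 at 30 h. Exon RPKM was 19.1 at 0 h, 2.21, 10.1 and 2.51 at 8 h, and 13.9, 17.8 and 11.2 at 30 h. The unstimulated library was highest on both scales, and its exon interval overlapped that of BAFF at 30 h. The 2 libraries with anti-IgM at 8 h were lowest, with overlapping intervals by exon RPKM and no overlap with any other library. Exon RPKM was 8.61-fold lower with anti-IgM at 8 h and 7.58-fold lower with both at 8 h than in unstimulated cells, where the log2 FPKM differences were -2.71 and -1.67. With anti-IgM E2f2 was 6.27-fold higher at 30 h than at 8 h by exon RPKM.

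The E2f2 transcripts mostly started 3′ of the annotated first exon. Such transcripts had 20.3 FPKM in unstimulated cells, 83.5% of the gene, and the transcript with the annotated first exon (splice site at base 136173038) had 4.02 FPKM. In the 2 libraries with anti-IgM at 8 h no transcript with the annotated first exon was assembled, and with both stimuli a single-exon piece held 3.39 of the 6.94 FPKM. At 30 h that form had 7.37, 3.18 and 4.82 FPKM with anti-IgM, BAFF and both, and transcripts that started 3′ of it had 9.09, 19.1 and 8.77 FPKM. The share of the annotated first exon was 44.8% with anti-IgM at 30 h, against 14.2% with BAFF at 30 h. The second RefSeq start of E2f2, at base 136180782, lay near the assembled starts of several of these transcripts, such as base 136180803 with BAFF at 30 h and base 136180820 in unstimulated cells.

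E2f3, the remaining activator, lies at chr13:29906575-29986063 on the minus strand with 7 exons. Its FPKM was 3.88 in unstimulated cells at 0 h, 3.66, 2.97 and 3.99 at 8 h with anti-IgM, BAFF and both, and 8.09, 7.61 and 7.49 at 30 h. Exon RPKM was 3.11 at 0 h, 2.95, 2.29 and 3.15 at 8 h, and 6.89, 4.58 and 6.51 at 30 h. The 3 libraries at 30 h stood above the other 4 on both scales, with intervals apart from them. The difference reached the limit only with BAFF between 30 h and 8 h (log2 FPKM difference 1.12), and there it was not held (0.76 by exon RPKM). Against unstimulated cells the log2 FPKM differences at 30 h were below 1 and not counted.

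The 2 starts of E2f3, whose upstream regions are printed above, differed in their levels over time. E2f3a, with the splice site of its first exon at base 29985300, had 0.89 FPKM in unstimulated cells at 0 h, 0.49 FPKM with anti-IgM at 8 h, and 3.10, 1.95 and 3.33 FPKM at 30 h with anti-IgM, BAFF and both. E2f3b, with its splice site at base 29984128, had 2.99 FPKM in unstimulated cells at 0 h, 3.16 FPKM with anti-IgM and 2.33 FPKM with both at 8 h, and 3.46, 2.60 and 4.16 FPKM at 30 h. All 3 E2f3a intervals at 30 h lay above that of unstimulated cells, whereas for E2f3b the interval lay above it with both stimuli and overlapped it with anti-IgM and with BAFF. E2f3a made up 38.3% of the gene's FPKM with anti-IgM, 25.6% with BAFF and 44.4% with both at 30 h. In unstimulated cells the share was 22.9%, and with anti-IgM at 8 h it was 13.5%. Another first exon in intron 1 had 1.52 FPKM with anti-IgM and 0.93 FPKM with BAFF at 30 h. Transcripts with a first exon were not assembled with BAFF at 8 h, and E2f3a was not assembled with both at 8 h. With BAFF at 30 h a single-exon piece of 648 bases over the E2f3a first exon, at 2.13 FPKM, was counted in neither form. The joined E2f3a transcripts of that library and of unstimulated cells began at base 29985304, close to the splice site, so little of their first exon was assembled.

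**Figure D3:**
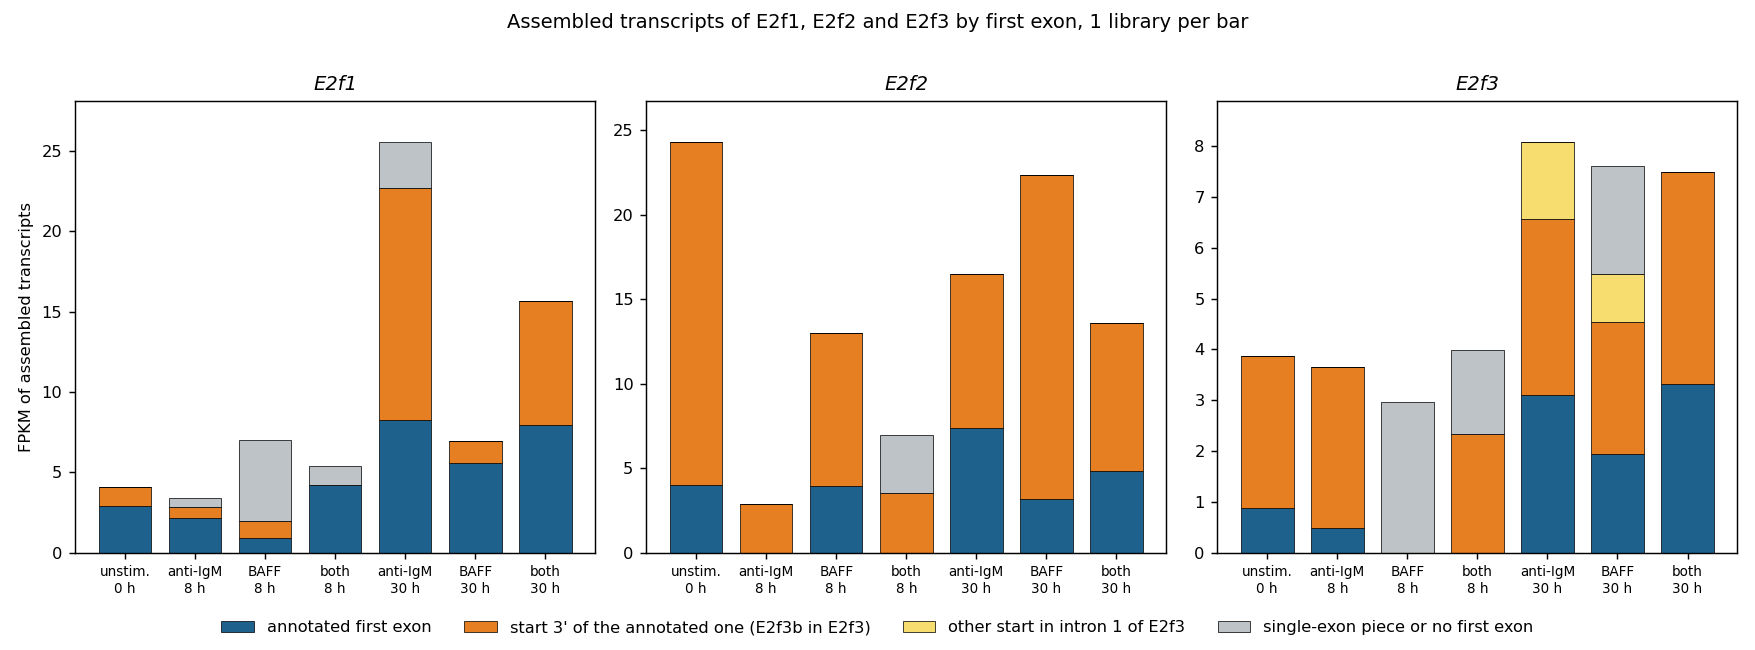
FPKM of assembled transcripts (vertical axis) of E2f1, E2f2 and E2f3 in each library (horizontal axis), stacked by first exon; each bar is 1 library and has no error bar. The annotated first exon of E2f3 has 3.10 FPKM with anti-IgM, 1.95 FPKM with BAFF and 3.33 FPKM with both at 30 h. It has 0.89 FPKM in unstimulated cells, while E2f2 starts mostly 3′ of its annotated first exon.

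E2f4, the factor that forms repressor complexes with pocket proteins, lies at chr8:105297663-105305370 on the plus strand with 10 exons. Its FPKM was 45.1 in unstimulated cells at 0 h, 96.7, 62.6 and 42.1 at 8 h with anti-IgM, BAFF and both, and 55.2 and 61.1 at 30 h with anti-IgM and with both. Exon RPKM was 29.1 at 0 h, 58.9, 35.2 and 38.7 at 8 h, and 49.0, 21.8 and 53.5 at 30 h with anti-IgM, BAFF and both. The anti-IgM library at 8 h was highest on both scales and the BAFF library at 30 h lowest by exon RPKM. The difference between anti-IgM at 8 h and unstimulated cells was counted at 1.08 in log2 FPKM and missed being held at 0.99. With BAFF at 30 h the reads over E2f4 came from a transcript of 4485 bases and 29 exons that also covered Elmo3, the next gene on the strand, at 23.0 FPKM. A like transcript of 4841 bases had 9.08 FPKM in unstimulated cells, and one of 2708 bases had 14.9 FPKM with BAFF at 8 h. With both stimuli at 8 h the 1 transcript of E2f4, of 3431 bases and 13 exons, ran past the annotated 3′ end. With anti-IgM at 8 h so did a transcript of 3081 bases and 13 exons with 21.5 of the 96.7 FPKM. Counting each transcript for every gene it covers adds the transcript of 4841 bases to E2f4 in unstimulated cells. With that setting 1 of the 10 genes was higher with anti-IgM at 8 h than in unstimulated cells, in place of 2. The share of the reads of these longer transcripts that belongs to E2f4 was not measured, so its levels in those libraries are uncertain.

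E2f7 and E2f8, the atypical repressors, had their highest exon RPKM with anti-IgM at 30 h. E2f8 lies at chr7:48866429-48881041 on the minus strand with 13 exons, and its FPKM was 2.93 in unstimulated cells at 0 h, 0.58 and 1.23 at 8 h with anti-IgM and BAFF, and 10.6, 5.49 and 8.51 at 30 h with anti-IgM, BAFF and both. Exon RPKM was 1.19 at 0 h, 0.15 and 0.17 at 8 h, and 9.28, 4.68 and 7.49 at 30 h. All 3 libraries at 30 h were above the rest with intervals apart on both scales, and by exon RPKM their order was anti-IgM, both, then BAFF, again with intervals apart. With anti-IgM at 30 h exon RPKM was 7.79-fold that of unstimulated cells and with both 6.29-fold. With BAFF at 30 h it was 3.93-fold, while the log2 FPKM difference of 0.72 was not counted. With anti-IgM at 8 h E2f8 was a piece of 1187 bases and 3 exons with 16.0 calculated reads, and its difference from unstimulated cells was counted at -1.32 but not held (-0.93). With BAFF at 8 h the difference was -0.82, which was not counted, and -0.90 by exon RPKM. Exon RPKM was 7.88-fold lower with anti-IgM and 6.88-fold lower with BAFF than in unstimulated cells, with intervals apart. At such low levels the 1 added to exon RPKM makes the log2 difference smaller.

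E2f7 lies at chr10:110745465-110787384 on the plus strand with 13 exons. Its FPKM was 1.84, 6.84 and 3.09 at 30 h with anti-IgM, BAFF and both, and exon RPKM was 1.74, 0.51 and 1.44. By FPKM it was highest with BAFF and by exon RPKM lowest with BAFF, where it was assembled as 4 separate pieces with 56.9 calculated reads. With anti-IgM 13 exons were joined in each of 2 transcripts, of 1.54 and 0.30 FPKM, with 220 calculated reads. A gene without an assembled transcript is not shown to be silent, and no fold against 0 h or 8 h is given.

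Tfdp1, which encodes the DP1 partner, was the gene with the most counted differences that were held. It lies at chr8:13339674-13377702 on the plus strand with 11 exons in the merged set, and its assembled transcripts began at bases 13338767 to 13339277, 5′ of the merged set's annotated start and 3′ of the RefSeq start at base 13338751. Its FPKM was 13.9 in unstimulated cells at 0 h, 38.1, 17.0 and 39.4 at 8 h with anti-IgM, BAFF and both, and 68.0, 38.9 and 71.2 at 30 h. Exon RPKM was 12.7 at 0 h, 34.6, 15.6 and 35.8 at 8 h, and 62.3, 35.6 and 65.0 at 30 h. The 2 libraries with anti-IgM at 30 h were highest, with overlapping intervals, followed by BAFF at 30 h and the 2 libraries with anti-IgM at 8 h, which also overlapped, then BAFF at 8 h and unstimulated cells. The log2 FPKM difference from unstimulated cells was 1.39 with anti-IgM and 1.44 with both at 8 h, and 2.21, 1.42 and 2.28 with anti-IgM, BAFF and both at 30 h. With BAFF at 8 h exon RPKM was 15.6, against 12.7 in unstimulated cells, with intervals apart and no counted difference.

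Rb1 encodes RB itself and lies at chr14:73195502-73325791 on the minus strand with 27 exons. Its FPKM was 12.9 in unstimulated cells at 0 h, 10.6, 12.0 and 36.6 at 8 h with anti-IgM, BAFF and both, and 14.3, 11.6 and 11.8 at 30 h with anti-IgM, BAFF and both. The library with both stimuli at 8 h stood apart, and there the gene was assembled as 2 pieces that do not overlap, 28.0 FPKM over 1320 bases and 8.61 FPKM over 11391 bases. Everywhere else it was 1 transcript of 27 exons. By exon RPKM the levels were 12.1 at 0 h, 9.95, 11.3 and 12.4 at 8 h with anti-IgM, BAFF and both, and 14.0, 11.4 and 11.6 at 30 h. None of the 4 counted Rb1 differences, each of which involved the library with both stimuli at 8 h, was held.

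Rbl1, which encodes p107 and is itself a known E2F target, lies at chr2:157145894-157204534 on the minus strand with 22 exons. Its FPKM was 14.0 in unstimulated cells at 0 h, 6.87, 11.0 and 7.45 at 8 h with anti-IgM, BAFF and both, and 19.8, 16.2 and 17.4 at 30 h. Exon RPKM was 8.73 at 0 h, 5.69, 9.34 and 6.22 at 8 h, and 16.8, 11.7 and 14.8 at 30 h. The 2 libraries with anti-IgM at 8 h were lowest, with intervals that overlapped each other and no other library, and the 3 libraries at 30 h were highest by exon RPKM. Between 30 h and 8 h Rbl1 was 2.95-fold higher with anti-IgM and 2.38-fold higher with both by exon RPKM, and both differences were counted and held. Against unstimulated cells no Rbl1 difference was counted. The 14.0 FPKM there included a single-exon piece of 461 bases with 3.89 FPKM, beside the transcript of 22 exons with 10.1 FPKM. By exon RPKM Rbl1 at 30 h was 1.92-, 1.34- and 1.69-fold that of unstimulated cells with anti-IgM, BAFF and both, with intervals apart. With BAFF at 8 h it was below unstimulated cells by FPKM, while the exon RPKM intervals overlapped.

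Rbl2, which encodes p130, the pocket protein of resting cells, lies at chr8:91070094-91123844 on the plus strand with 22 exons. Its FPKM was 27.4 in unstimulated cells at 0 h, 12.0, 22.3 and 11.3 at 8 h with anti-IgM, BAFF and both, and 24.6, 22.8 and 17.0 at 30 h. Exon RPKM was 24.6 at 0 h, 10.8, 20.1 and 10.2 at 8 h, and 22.3, 20.6 and 15.4 at 30 h. The 2 libraries with anti-IgM at 8 h overlapped and were lowest, both stimuli at 30 h came next, and BAFF at 8 h, BAFF at 30 h and anti-IgM at 30 h overlapped between neighbours below the unstimulated library. Exon RPKM was 2.28-fold lower with anti-IgM and 2.42-fold lower with both at 8 h than in unstimulated cells. All 22 exons were joined in every library, so the 2 scales gave nearly the same differences, -1.13 and -1.12 in log2 with anti-IgM at 8 h.

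Anti-IgM and BAFF were set directly against each other at the same times. At 8 h Tfdp1 was higher (38.1 FPKM with anti-IgM, against 17.0 FPKM with BAFF) and E2f2 lower (2.86 FPKM with anti-IgM, against 13.0 FPKM with BAFF), both held, of 9 genes compared; 4.81% of all genes were higher and 8.3% lower, and 6.38% were held. At 30 h E2f1 was counted as higher and E2f7 as lower with anti-IgM, of 9 compared, where 3.97% of all genes were higher and 4.54% lower, and 2.93% were held. Neither was held. E2f1 had a log2 difference of 1.74 by FPKM and 0.80 by exon RPKM, and E2f7 of -1.46 by FPKM and 0.86 by exon RPKM, which is a change of sign.

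Adding BAFF to anti-IgM left no held difference in these genes. At 8 h E2f2 and Rb1 were counted as higher and E2f4 as lower with both stimuli than with anti-IgM alone, of 8 compared, with 4.21% of all genes higher, 1.83% lower and 0.641% held. Exon RPKM there was 2.51 with both and 2.21 with anti-IgM for E2f2, and 38.7 with both and 58.9 with anti-IgM for E2f4. At 30 h none of 10 genes was counted, where 2.11% of all genes were higher and 3.15% lower, and 0.677% were held. The median difference was -0.22 for the 10 genes and -0.04 for all genes.

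Adding anti-IgM to BAFF went with higher Tfdp1 at 8 h and higher E2f1 at 30 h, both held. At 8 h 2 of 8 genes were counted as higher (Tfdp1, and Rb1, which was not held), where 5.55% of all genes were higher and 6.85% lower, and 6.27% were held. Tfdp1 had 39.4 FPKM with both and 17.0 FPKM with BAFF alone. E2f2 was not counted by FPKM (log2 difference -0.82), but its exon RPKM was 2.51 with both and 10.1 with BAFF alone, with intervals apart and 4.03-fold lower with both. At 30 h 1 of 9 genes was higher, where 3.03% of all genes were higher and 4.95% lower, and 2.68% were held. E2f1 had 15.7 FPKM with both and 6.93 FPKM with BAFF alone, a 2.27-fold difference by exon RPKM.

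Between 30 h and 8 h of the same stimulus most counted differences were upward. With anti-IgM 4 of 9 genes were higher at 30 h (E2f1, E2f2, E2f8 and Rbl1, all held), where 7.94% of all genes were higher and 5.25% lower, and 7.03% were held. The median difference was 0.98 for the 9 genes and -0.02 for all genes. With BAFF 3 of 8 were higher (E2f8 and Tfdp1, held, and E2f3, not held), where 3.56% of all genes were higher and 4.12% lower, and 1.85% were held. With both stimuli E2f1 and Rbl1 were higher and held and Rb1 was counted as lower and not held, of 8 compared, where 5.67% of all genes were higher and 6.84% lower, and 6.42% were held. By exon RPKM E2f2 was also higher with both, at 11.2 at 30 h and 2.51 at 8 h (4.45-fold), and E2f1 with BAFF, at 5.86 at 30 h and 2.21 at 8 h (2.65-fold), in each case with intervals apart. By FPKM these were not counted (log2 differences 0.88 and -0.01). E2f7 and, with both stimuli, E2f8 could not be compared, because they were not assembled at 8 h. These 3 comparisons share no library with each other.

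The genes that act around E2F and RB were counted in 7 lists, to be read against the shares of all genes given above for the same comparisons. Of 8 G1 cyclins and kinases that phosphorylate pocket proteins, 7 were compared at 30 h, and 3 were higher and 1 lower with anti-IgM than in unstimulated cells (median log2 difference 0.65), where 8.4% of all genes were higher and 7.25% lower. Those 3 were Ccnd2, cyclin D2 (66.2 FPKM with anti-IgM at 30 h, 18.1 FPKM in unstimulated cells), Ccne1, cyclin E1 (23.0 FPKM with anti-IgM at 30 h, 7.34 FPKM in unstimulated cells), and Cdk4, the kinase partner of D cyclins (171 FPKM with anti-IgM at 30 h, 58.0 FPKM in unstimulated cells). The same 3 were higher with both stimuli at 30 h (median 0.61), and none was higher with BAFF at 30 h (median 0.35). The lower one was Ccnd1, cyclin D1, at 2.16 FPKM with anti-IgM at 30 h and 11.1 FPKM in unstimulated cells. Its exon RPKM was 10.2 in unstimulated cells at 0 h, 0.48, 0.81 and 0.47 at 8 h with anti-IgM, BAFF and both, and 0.36, 0.73 and 0.22 at 30 h, so on that scale Ccnd1 was lower in all 6 stimulated libraries. With BAFF at 30 h Ccnd1 alone was counted, as lower. At 8 h Ccnd2 and Cdk4 were higher and Ccnd1 and Ccne1 lower with anti-IgM, of 6 compared (median 0.41); Ccne1 was not held. With both at 8 h Ccnd2, Cdk4 and Cdk6, the other kinase partner of D cyclins, were higher and Ccnd3, cyclin D3, lower, of 7 compared (median -0.52), and with BAFF at 8 h none of 7 was counted by FPKM (median 0.35), where Ccnd1 had 8.26 FPKM with BAFF and 5.45 FPKM with both. With anti-IgM alone at 8 h Cdk6 had 10.4 FPKM, which was not counted, against 11.5 FPKM with both and 5.02 FPKM in unstimulated cells. Ccnd3 was not assembled with anti-IgM at 8 h and could not be compared there. Cdk6 was named after its values were seen.

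Of 7 inhibitors of these kinases 4 were compared, and at 8 h with anti-IgM 1 was higher and 2 lower (median -1.03), where 10.7% of all genes were higher and 10.4% lower. Cdkn1b, p27, had 27.6 FPKM with anti-IgM at 8 h and 65.2 FPKM in unstimulated cells, and Cdkn2d, p19, had 3.22 FPKM with anti-IgM at 8 h and 27.1 FPKM in unstimulated cells. Cdkn1a, p21, had 14.9 FPKM with anti-IgM at 8 h and 5.34 FPKM in unstimulated cells. With both at 8 h 1 was higher and 3 lower (median -1.19), with BAFF at 8 h 1 was lower (median 0.30), and at 30 h at most 1 of 4 was counted with any stimulus (medians 0.03, -0.15 and 0.15 with anti-IgM, BAFF and both). By exon RPKM the medians of these inhibitors had the other sign with BAFF at 8 h (-0.21) and at 30 h with anti-IgM, BAFF and both (-0.02, 0.18 and -0.44), so no direction is given for them there. Cdkn1a had an exon RPKM of 9.50 with BAFF at 8 h and 1.53 in unstimulated cells, a difference not counted by FPKM. The 3 other E2F and DP genes, E2f5, E2f6 and Tfdp2, had no held difference from unstimulated cells except E2f6, a repressor, with both at 8 h (12.8 FPKM with both, 5.37 FPKM in unstimulated cells). With anti-IgM alone at 8 h E2f6 had a similar level, 12.2 FPKM, which was not counted. Its exon RPKM was 10.6 with anti-IgM and 11.5 with both at 8 h, against 4.05 in unstimulated cells. The medians of E2f5, E2f6 and Tfdp2 were 0.15 to 0.52 over the 6 comparisons.

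Of 8 genes of the MuvB core and its MYB and FOXM1 partners, none was counted at 8 h, and 3, 1 and 2 were higher at 30 h with anti-IgM, BAFF and both. All but Lin54, a DNA-binding MuvB subunit, with anti-IgM were held. Mybl2, B-MYB, itself a known E2F target, had 13.5, 6.67 and 13.7 FPKM at 30 h with anti-IgM, BAFF and both, against 2.66 FPKM in unstimulated cells. Foxm1, a factor of mitotic genes, had 9.74 FPKM with anti-IgM and 9.13 FPKM with both at 30 h, against 3.23 FPKM in unstimulated cells. Medians of the list were 0.43, 0.32 and 0.21 at 30 h and -0.32, -0.11 and -0.07 at 8 h with anti-IgM, BAFF and both. Of 10 corepressors that bind pocket proteins, 1 was counted, Rbbp7, a histone-binding subunit, higher in all 4 libraries with anti-IgM and in neither with BAFF alone, with 154 FPKM with anti-IgM at 8 h against 60.5 FPKM in unstimulated cells. That is near the share of all genes that were higher in these 4 comparisons, 10.7% and 12.3% at 8 h and 8.4% and 8.29% at 30 h with anti-IgM and with both. The medians of that list were 0.12 to 0.52.

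The known E2F targets of S phase were counted as higher at 30 h and rarely at 8 h. Of 30 listed genes, 29, 28 and 29 were compared at 30 h with anti-IgM, BAFF and both: 23, 17 and 24 were higher and 1, 1 and 0 lower than in unstimulated cells. Medians were 1.99, 1.14 and 1.83 at 30 h and 0.03, 0.09 and 0.12 at 8 h, beside medians of all genes of 0.12 or less in size. By exon RPKM they were 1.98, 1.17 and 1.92 at 30 h. Uhrf1, which maintains DNA methylation, had 91.3, 36.8 and 82.5 FPKM at 30 h with anti-IgM, BAFF and both, against 7.55 FPKM in unstimulated cells. Cdc6, which loads the replicative helicase, had 21.2, 8.27 and 14.1 FPKM in the same libraries, against 1.21 FPKM in unstimulated cells. Rrm2, a subunit of ribonucleotide reductase, had 57.1, 30.7 and 52.1 FPKM, against 7.29 FPKM in unstimulated cells. Of the higher ones 22, 16 and 23 were held, and the lower one, Cdt1, a helicase loading factor, was not. At 8 h 2, 2 and 0 genes were higher and 3, 3 and 2 lower with anti-IgM, BAFF and both, of 28, 27 and 27 compared. With anti-IgM 1 of the higher and 1 of the lower were held, and with BAFF and with both none was. The higher one was Pcna, with 171 FPKM with anti-IgM at 8 h, against 78.2 FPKM in unstimulated cells. The lower one was Rrm2, with 2.82 FPKM with anti-IgM at 8 h. The highest points at 8 h were Tyms, thymidylate synthase, with 78.5 FPKM with anti-IgM and 179 FPKM with BAFF, against 4.42 FPKM in unstimulated cells, but its exon RPKM was 5.38 with anti-IgM and 7.63 with BAFF, against 6.90 in unstimulated cells. Cdt1, Pcna and Tyms were named after their values were seen.

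The mitosis genes that DREAM represses in quiescent cells were likewise mostly higher at 30 h. Of 20 genes, all compared at 30 h, 18, 13 and 17 were higher and 1, 1 and 1 lower with anti-IgM, BAFF and both, with medians of 1.73, 1.36 and 1.68, and by exon RPKM of 1.47 to 1.92. At 8 h 1, 1 and 1 were higher and 5, 1 and 0 lower, of 18, 19 and 17 compared, with medians of -0.44, -0.27 and -0.20. None of those at 8 h was held. Cdk1, the mitotic kinase, had 40.5, 25.5 and 35.1 FPKM at 30 h with anti-IgM, BAFF and both, against 4.54 FPKM in unstimulated cells. Mki67, the proliferation marker, had 34.1, 19.3 and 30.4 FPKM, against 5.60 FPKM in unstimulated cells. The gene counted as lower at 30 h was Cenpf, a kinetochore protein gene named after its values were seen, whose exon RPKM was 2.96 with anti-IgM, against 0.53 in unstimulated cells, the other way.

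**Figure D4:**
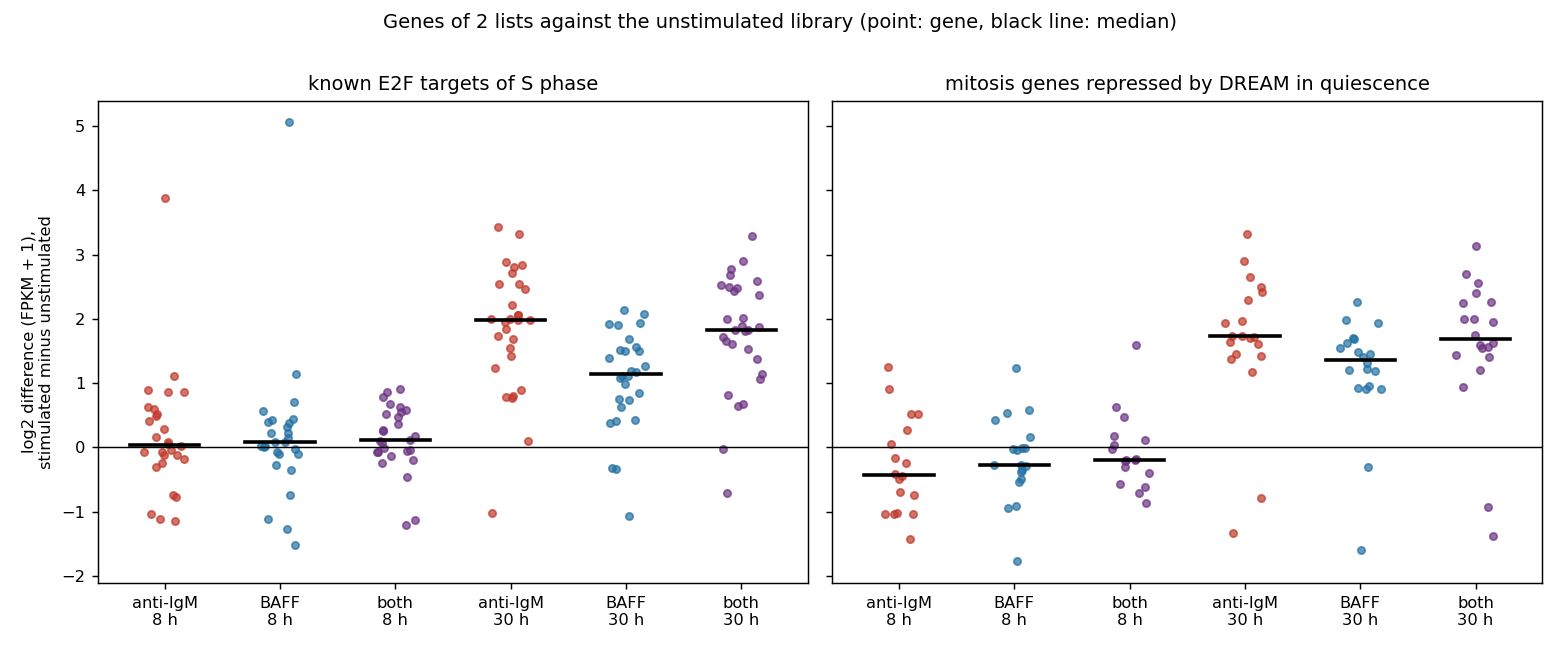
Log2 difference in FPKM plus 1 (vertical axis) between each stimulated library and the unstimulated one (horizontal axis) for the genes of 2 lists; each point is 1 gene and the black line is the median. The medians of the S phase list lie at 1.99, 1.14 and 1.83 at 30 h with anti-IgM, BAFF and both, and those of the mitosis list at 1.73, 1.36 and 1.68; the 2 high points at 8 h are Tyms.

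For each gene assembled in all 7 libraries with a 2-fold range, the 3 genes most alike were taken by Pearson's r of log2 FPKM plus 1 over the 7 libraries, among 4528 genes. With 7 points, 3 of them at 8 h and 3 at 30 h, these values only describe the pattern. E2f1 was most like Pola1, the catalytic subunit of DNA polymerase alpha (r = 0.98), then Mtmr14 and Eef1g. With anti-IgM at 30 h E2f1 had 25.6 FPKM but an exon RPKM of 10.9, and Pola1 34.9 FPKM but an exon RPKM of 15.7. With both stimuli at 30 h their exon RPKM was 13.3 and 15.6. Likeness by exon RPKM was not computed. Rbl1 was most like Arid3a, a B lineage DNA-binding factor (r = 0.99), then Trpv2 and Fam111a. Tfdp1 was most like Siva1 (r = 0.996), then Cox6b1 and Hat1. Rbl2 was most like Il10ra (r = 0.98), then Ccng2 and Arrdc1, and E2f2 most like Zcchc18 (r = 0.98), then Pstpip1 and Rab19. E2f3 was most like Vps41 (r = 0.99), then Arhgap31 and Ttk. The 3 genes most like Rb1, Svil, Herc4 and Itfg1, also had their highest FPKM with both stimuli at 8 h, where Rb1 was in 2 pieces.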

How the data were processed

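RNA of 7 libraries was purified with RNeasy, reverse transcribed from poly-dT primers and made into Illumina TruSeq libraries, per the labels' protocols. Reads were handled with CASAVA 1.8.2, TopHat2 2.0.5, Bowtie2 2.0.0.7 and Cufflinks 2.0.2 on mm10, per the submitters' processing notes. The deposited files give each assembled transcript its FPKM and interval bounds, per the file headers and attributes written by Cufflinks, and a merged set of transcripts with gene names. Depth was calculated back from these values, so intervals cover counting error only.

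Each transcript of at least 300 bases was named for the gene with the most shared exon bases on the same strand, using the RefSeq transcripts of the merged set. FPKM was summed per gene, and reads over annotated exons were calculated back. Python 3.11.15, numpy 2.4.6 and matplotlib 3.10.9 were used, and the count was tested on simulated data. The simulated data had counting error only. They had no assembly of genes in separate pieces, so errors from such pieces were not tested. There were 15 comparisons between single libraries and no statistical test.

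The 10 genes, the 7 lists, the markers and the rules were chosen with earlier results of these data known. Of each list, up to 6 genes with the greatest difference between anti-IgM at 30 h and unstimulated cells could be named. For each gene of the 10 that was assembled in all 7 libraries, the 3 most correlated genes were named. Other settings were tried, 2 of them chosen after seeing the data.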

Additional observations from a re-analysis of the deposited data

How the results depend on the processing

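No paired analysis was possible because each condition was 1 library, and no library could be left out of a group. In 15 comparisons, the counts of genes of the 10 that differed kept within 1.5 times of those reported with no minimum FPKM, with at least 5 FPKM, with bounds summed over transcripts, with median-ratio scaling, with transcripts of any length and with strandless transcripts added. With the most abundant transcript only, the counts were 3 for anti-IgM at 8 h against unstimulated cells (5 reported), 2 for BAFF at 30 h against unstimulated cells (1), 1 for both against anti-IgM at 8 h (3), 1 for both against BAFF at 8 h (2) and 1 for BAFF at 30 h against 8 h (3). With reads over exons they were 3 for anti-IgM at 8 h (5) and 2 for BAFF at 30 h (1) against unstimulated cells, 1 for anti-IgM against BAFF at 30 h (2), 0 for both against anti-IgM at 8 h (3) and 2 for both against BAFF at 30 h (1). On that scale E2f7 reversed between anti-IgM and BAFF at 30 h, at 0.86 against -1.46 by FPKM, where it was in 4 pieces with BAFF. The 1 gene counted by exons between anti-IgM and BAFF at 30 h was E2f4 (1.13), which was not among the 2 reported. E2f4 was also the gene added for both against BAFF at 30 h (1.26). Its reads with BAFF at 30 h came from the transcript that also covered Elmo3. A pseudocount of 0.1 gave 1 for BAFF at 8 h against unstimulated cells (0) and 2 for both against BAFF at 30 h (1). A limit of 1.5-fold gave, against unstimulated cells, 3 for BAFF at 8 h (0), 4 for BAFF at 30 h (1) and 6 for both at 30 h (3). It gave 6 for anti-IgM against BAFF at 8 h (2), 4 at 30 h (2), 4 for both against BAFF at 8 h (2) and 4 at 30 h (1), and 1 for both against anti-IgM at 30 h (0). Between 30 h and 8 h it gave 8 with anti-IgM (4) and 6 with both (3). In the alternatives chosen after seeing the data, setting genes that were not assembled to 0 gave 3 for BAFF at 30 h against unstimulated cells (1), 2 for both against BAFF at 30 h (1), 5 for BAFF at 30 h against 8 h (3) and 5 for both at 30 h against 8 h (3). Counting a transcript for every gene it covers gave 2 for BAFF at 30 h against unstimulated cells (1) and 2 for both against BAFF at 30 h (1). The cause of these shifts was not tested.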
